A study of Mus musculus with 17 samples.

Results

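The mesothelial lining genes of the diaphragm are 10 transcripts of the flat epithelium that covers the muscle on its peritoneal and pleural faces. They are the surface and membrane protein genes *Msln*, *Muc16*, *Upk3b*, *Upk1b*, *Lrrn4* and *Gpm6a*, the transcription factor gene *Wt1*, and the keratin genes *Krt8*, *Krt18* and *Krt19*. They were taken by symbol from the expression table, which held all 10 among its 47643 gene symbols, and all 10 were among the 13305 genes that passed the filter of at least 1 TPM in at least 3 mice. TPM, the unit throughout, is a read count divided by transcript length and scaled to the same sum in each mouse. The muscle came from 17 male mice of the C57BL/6J strain at 4 months of age and was analysed by RNA-seq. Control mice (n = 5) had no tumor and received mock injections, and Control + rFibcd1 mice (n = 5) had no tumor and received rFibcd1, recombinant Fibcd1 protein. LLC mice (n = 3) carried tumors from Lewis lung carcinoma cells placed under the skin of the flanks and received mock injections, and LLC + rFibcd1 mice (n = 4) carried the same tumors and received rFibcd1. In all 4 groups the injections were given into the peritoneal cavity, which this epithelium borders. The comparisons ask how these transcripts differ with the tumor and with rFibcd1.

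Mesothelial cells form a continuous sheet over the serous cavities, secrete a lubricating film, and carry both epithelial keratins and mesodermal regulators. Mesothelin and the large mucin encoded by *Muc16* are cell surface glycoproteins that bind each other. *Upk3b* and *Upk1b* encode members of the uroplakin family, which was first described in the bladder, *Lrrn4* encodes a leucine-rich repeat membrane protein, and *Gpm6a* a membrane glycoprotein also known from neurons. *Wt1* encodes a zinc finger transcription factor needed for the development of the mesothelium and of the organs that arise from it. Keratin 8 and keratin 18 pair into the intermediate filaments of simple epithelia, and keratin 19 is a further acidic keratin of such cells, so that keratins are shared with glands, gut and bile ducts.

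On GRCm38 (GENCODE vM21, counted from 1), *Msln* lies at chr17:25748613-25754378 on the minus strand and *Muc16* at chr9:18495455-18674530 on the minus strand. *Upk3b* lies at chr5:136038496-136046487 on the plus strand, *Upk1b* at chr16:38773184-38800328 on the minus strand, and *Gpm6a* at chr8:54954843-55060871 on the plus strand. *Lrrn4* at chr2:132868305-132880891 on the minus strand and *Wt1* at chr2:105126529-105173616 on the plus strand share a chromosome. *Krt8* at chr15:101996698-102004482 on the minus strand and *Krt18* at chr15:102028180-102032027 on the plus strand are neighbors that point away from each other, and *Krt19* lies apart from them at chr11:100140810-100148665 on the minus strand. *Krt8* has an annotated pseudogene, *Krt8-ps*, which was listed at 0 in every mouse. Whether the counting used strand was not given in the sources used here. *Krt8* and *Muc16* each overlap an annotated transcript on the opposite strand, and the one at *Muc16* was at 0 TPM. The annotated transcripts that overlap *Gpm6a* lie on its own strand, so counting by strand would not separate them.

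The start regions of 4 members are shown because they belong to the most tightly coupled transcripts below: *Upk3b* and *Lrrn4* among the membrane proteins, and the neighbors *Krt8* and *Krt18*. RefSeq (GRCm38.p6) promoter windows, from 250 bases before to 50 bases after an annotated start, matched 6 of the 10 members with 7 windows. The windows are at chr5:136038246-136038545 on the plus strand for *Upk3b*, chr2:132880813-132881112 on the minus strand for *Lrrn4*, chr15:102004293-102004592 on the minus strand for *Krt8* and chr15:102027966-102028265 on the plus strand for *Krt18*. Each is written 5′ to 3′ along its gene. Capitals mark matches, on either strand, to any of 5 motifs: the TATA box TATAAA, the WT1 and EGR core GCGTGGG, the TEAD core GGAATG, the AP-1 site TGANTCA and the GC box GGGCGG.
Upk3b: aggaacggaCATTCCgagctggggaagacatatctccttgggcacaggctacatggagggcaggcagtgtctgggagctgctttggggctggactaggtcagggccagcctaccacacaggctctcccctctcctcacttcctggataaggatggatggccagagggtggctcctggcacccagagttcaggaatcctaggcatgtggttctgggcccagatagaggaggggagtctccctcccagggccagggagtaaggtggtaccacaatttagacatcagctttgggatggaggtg
Lrrn4: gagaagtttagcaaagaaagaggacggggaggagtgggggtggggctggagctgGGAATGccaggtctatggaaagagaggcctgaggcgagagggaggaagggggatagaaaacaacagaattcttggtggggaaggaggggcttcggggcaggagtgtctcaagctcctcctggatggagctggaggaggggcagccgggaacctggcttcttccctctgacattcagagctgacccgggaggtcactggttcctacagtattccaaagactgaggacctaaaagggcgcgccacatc
Krt8: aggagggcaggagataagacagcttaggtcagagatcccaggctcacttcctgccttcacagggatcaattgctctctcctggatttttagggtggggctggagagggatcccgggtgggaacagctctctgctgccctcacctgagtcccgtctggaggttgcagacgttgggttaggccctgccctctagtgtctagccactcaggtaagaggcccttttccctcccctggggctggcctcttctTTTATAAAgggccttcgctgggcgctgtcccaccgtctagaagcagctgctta
Krt18: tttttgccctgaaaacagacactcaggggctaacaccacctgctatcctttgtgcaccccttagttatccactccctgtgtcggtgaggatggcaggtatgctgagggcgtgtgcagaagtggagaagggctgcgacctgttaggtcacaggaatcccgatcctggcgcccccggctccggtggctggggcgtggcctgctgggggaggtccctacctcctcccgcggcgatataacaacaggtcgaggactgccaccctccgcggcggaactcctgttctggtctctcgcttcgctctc

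GGAATG was present in 3 of the 7 windows, those of *Upk3b*, *Lrrn4* and the upstream start of *Gpm6a*, and in 14.7% of all 32851 windows of this length. TATAAA was present in 2 of the 7 (*Krt8*, where matches on both strands overlap, and the downstream start of *Gpm6a*) against 13.6% of all windows. GGGCGG was present in 1 of the 7 (the upstream start of *Gpm6a*) against 35.7%. GCGTGGG was found in 0 of the 7, against 5.04% of all windows. The AP-1 site was found in 0 of the 7, against 7.81% of all windows. These are letter matches in short windows, not measured binding, and the windows of *Muc16* and *Krt18* held none of the 5 motifs.

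The depth behind these values was estimated from the steps between low TPM values, since the table holds no counts. It came to 50700000 to 54500000 reads per mouse, and 1 TPM in a transcript of 1 kb stood for 23.9 to 26.7 reads. By this estimate the members' values rested on 37 to 6674 reads each, with the fewest for *Krt18* and the most for *Upk3b*. The 7 skeletal muscle genes checked, *Acta1* and *Ckm* among them, summed to between 39260 and 51130 TPM, as the tissue label says. The replicates are separate mice by the study's account.

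The keratins of 3 mice have to be read with transcripts of other epithelia beside them. LLC replicate 3 had 15.4 TPM of *Epcam* and 15.1 TPM of *Cdh1*, adhesion molecules of glandular and lining epithelia, and Control replicate 1 had 3.00 and 2.64 TPM. In the other 15 mice *Epcam* was at most 0.761 TPM and *Cdh1* at most 1.22 TPM. *Tm4sf4*, *Cldn2*, *Muc1*, *Spp1* and *Actg2*, chosen after their values were seen, summed to 351.6 TPM in LLC replicate 3 and 58.3 TPM in Control replicate 1, and to at most 14.9 TPM elsewhere. Control + rFibcd1 replicate 2 had 1934 TPM of *Alb* and 561 TPM of *Apoa1*, secretory products of hepatocytes. The next highest mice were Control replicate 4, with 171.0 and 64.4 TPM, and LLC + rFibcd1 replicate 4, with 165.6 and 58.3 TPM. Of the 16 genes listed for other epithelia, the lung genes summed to 0 to 2.38 TPM over the 17 mice, the bladder genes *Upk1a*, *Upk2* and *Upk3a* to 0.890 to 1.69 TPM, and the epidermal keratins to 2.85 to 9.59 TPM. *Krt14*, the most abundant of the last, reached 7.76 TPM, in an LLC + rFibcd1 mouse, and had an r of 0.730 with the mean of the members. The part of these transcripts in the keratin values was not tested. The comparisons are therefore also given without the 3 mice, LLC replicate 3, Control replicate 1 and Control + rFibcd1 replicate 2. Those fits still hold Control replicate 4 and LLC + rFibcd1 replicate 4.

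Per length, *Upk3b* was the most abundant member, with a mean of 39.9 ± 20.6 TPM (SD, n = 17), and *Muc16* the least, with 1.12 ± 0.647 TPM. Between them came *Msln* at 29.8 ± 11.96 TPM, *Krt19* at 22.8 ± 25.4 TPM, *Upk1b* at 15.2 ± 7.15 TPM, *Gpm6a* at 13.7 ± 5.28 TPM, *Lrrn4* at 11.8 ± 5.79 TPM, *Krt8* at 9.63 ± 13.4 TPM, *Krt18* at 7.39 ± 9.46 TPM and *Wt1* at 3.20 ± 1.499 TPM. Neighbors in this order were compared by their ratio within each mouse. The mean log2 ratio exceeded its SD over mice for *Upk3b* over *Msln* (higher in 15 of 17 mice), *Gpm6a* over *Lrrn4* (13 of 17), *Krt8* over *Krt18* (15 of 17) and *Wt1* over *Muc16* (17 of 17). The other neighbors, *Msln* and *Krt19*, *Krt19* and *Upk1b*, *Upk1b* and *Gpm6a*, *Lrrn4* and *Krt8*, and *Krt18* and *Wt1*, did not differ beyond that spread.

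**Figure D1:**
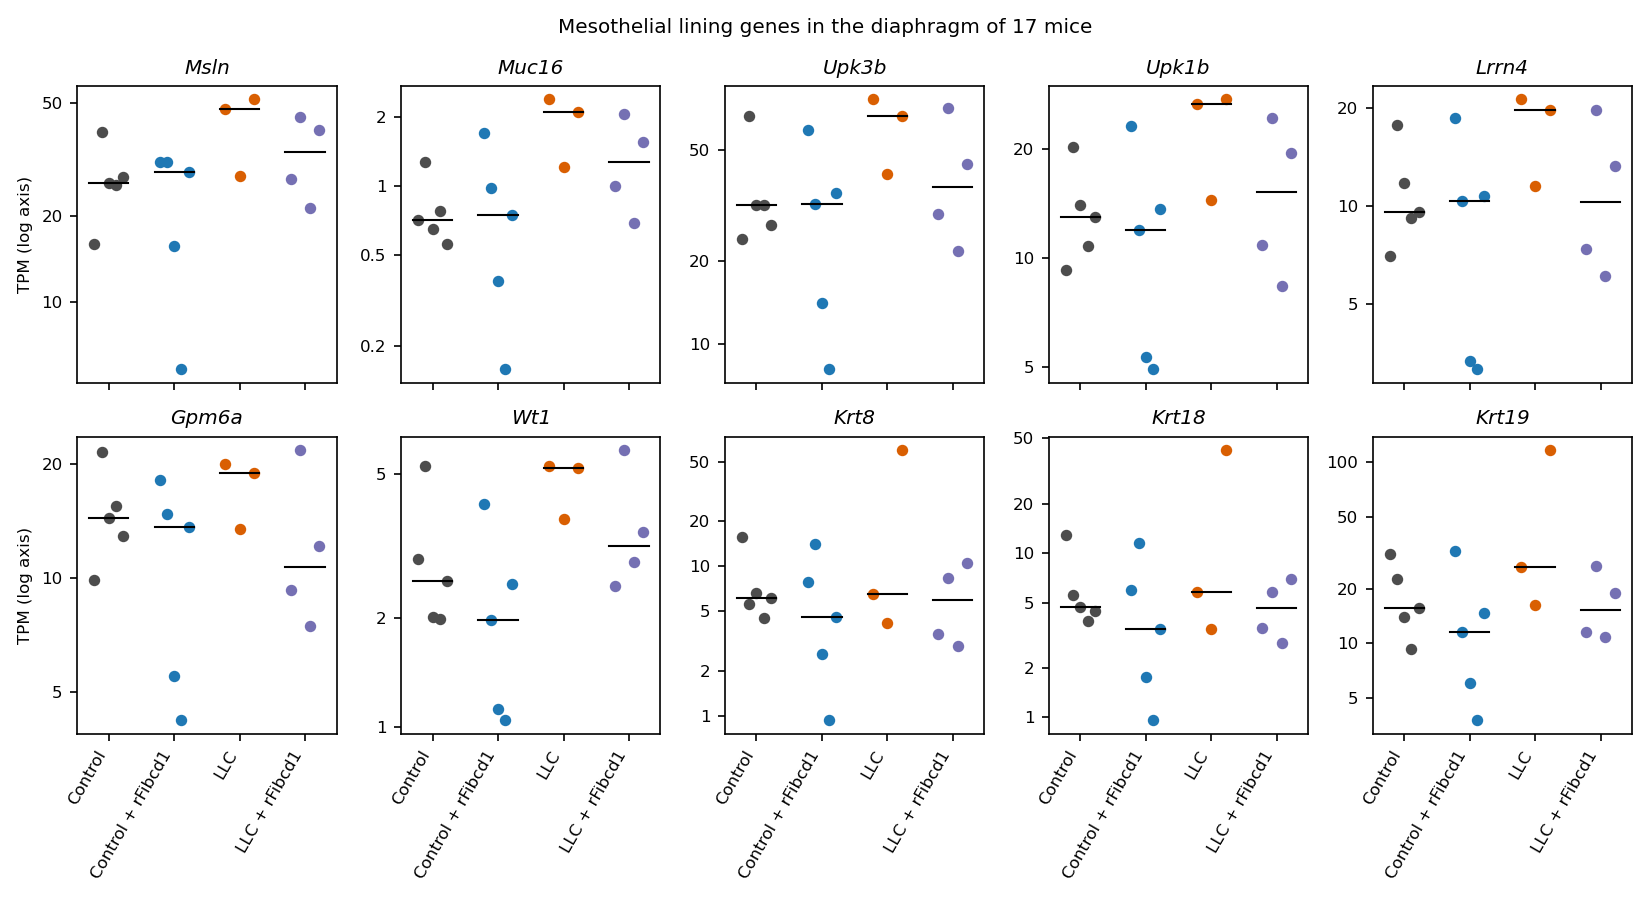
TPM of the 10 mesothelial lining genes on a log axis, with a panel per gene and a point per mouse in each of the 4 groups, which hold 5, 5, 3 and 4 mice from left to right; lines are group medians. The groups overlap in every panel, and 1 LLC mouse stands above the rest for *Krt8*, *Krt18* and *Krt19*.

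*Msln*, the gene of mesothelin, ranged from 5.79 to 51.3 TPM. It measured 15.9, 39.6, 26.02, 25.8 and 27.4 TPM in Control and 31.0, 31.0, 15.6, 5.79 and 28.6 TPM in Control + rFibcd1 mice. It measured 47.4, 27.6 and 51.3 TPM in LLC and 27.04, 44.6, 21.4 and 40.3 TPM in LLC + rFibcd1 mice. Of the LLC mice, 2 were above every tumor-free mouse, and the remaining LLC mouse was within the Control range. The change from Control to LLC was 0.63 ± 0.45 on the log2(TPM + 1) scale (SE, adjusted p = 0.276).

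*Muc16*, the gene of the mucin that carries the CA125 antigen, was the lowest member and the only one called in the comparison of LLC with Control. It measured 0.711, 1.27, 0.652, 0.781 and 0.556 TPM in Control and 2.39, 1.22 and 2.10 TPM in LLC mice. It measured 1.70, 0.979, 0.384, 0.158 and 0.747 TPM in Control + rFibcd1 and 0.999, 2.07, 0.692 and 1.56 TPM in LLC + rFibcd1 mice. The lowest LLC mouse was below the highest Control mouse, so the groups overlapped. The change was 0.68 ± 0.25 (SE) with an adjusted p of 0.0467 by limma, just inside the threshold of 0.05. The ratio of mean TPM was 2.40, larger than this scale shows for so low a gene, and with a pseudocount of 0.1 TPM the change was 1.16 (adjusted p = 0.0868). The call was kept in 7 of 17 fits that each left out 1 mouse, and the adjusted p ranged from 0.0246 to 0.171 over them. It was lost without Control replicate 1, 3, 4 or 5, Control + rFibcd1 replicate 2 or 5, LLC replicate 1 or 3, or LLC + rFibcd1 replicate 1 or 4. It was also lost without the 3 mice named above (0.61, adjusted p = 0.212).

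*Upk3b* and *Upk1b* differed in level and moved together. *Upk3b* measured 23.9, 66.2, 31.8, 31.7 and 26.9 TPM in Control and 59.1, 31.9, 14.1, 8.14 and 35.0 TPM in Control + rFibcd1 mice. It measured 75.9, 41.0 and 66.4 TPM in LLC and 29.4, 70.5, 21.6 and 44.4 TPM in LLC + rFibcd1 mice. All 3 LLC mice were above 4 of the 5 Control mice, and Control replicate 2 was among the LLC values. The change from Control to LLC was 0.80 ± 0.53 for *Upk3b* (SE, adjusted p = 0.243) and 0.71 ± 0.44 for *Upk1b* (adjusted p = 0.209). *Upk1b* spanned 4.93 to 27.5 TPM over the 17 mice, and its ratio to *Upk3b* lay between 0.307 and 0.606.

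*Lrrn4* and *Gpm6a* encode the other membrane proteins. *Lrrn4* measured 7.04, 17.7, 11.8, 9.16 and 9.57 TPM in Control and 21.3, 11.6 and 19.8 TPM in LLC mice, a change of 0.64 ± 0.49 (SE, adjusted p = 0.308). *Gpm6a* measured 9.88, 21.4, 14.4, 15.5 and 12.9 TPM in Control and 19.9, 13.4 and 18.9 TPM in LLC mice. With all mice its change, 0.24 ± 0.41 (SE, adjusted p = 0.662 by limma), was the smallest of the 10, and its highest value in these 2 groups was in a Control mouse. The change ranged from 0.12 to 0.41 with 1 mouse left out. Without LLC replicate 3 the changes of *Krt8* (-0.36) and *Krt18* (-0.29) were lower. In proportion to *Upk3b*, *Gpm6a* had a median ratio of 0.452 in Control and 0.284 in LLC mice, with overlapping ranges. For *Muc16* the median ratio to *Upk3b* was 0.0207 in Control and 0.0315 in LLC mice. These ratios are given as descriptions, without a test.

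*Wt1*, the transcription factor gene, measured 2.91, 5.28, 2.02, 1.99 and 2.53 TPM in Control and 4.14, 1.98, 1.12, 1.05 and 2.49 TPM in Control + rFibcd1 mice. It measured 5.29, 3.77 and 5.22 TPM in LLC and 2.45, 5.82, 2.86 and 3.46 TPM in LLC + rFibcd1 mice. All 7 tumor-bearing mice were above the 3 lowest Control + rFibcd1 mice, but Control replicates 1, 2 and 5 and Control + rFibcd1 replicates 1 and 5 lay within the tumor-bearing range. The change from Control to LLC was 0.59 ± 0.31 (SE, adjusted p = 0.138). With the 7 tumor-bearing mice set against the 10 tumor-free mice, each group weighted by its size, *Wt1* rose by 0.57 ± 0.21 (SE, adjusted p = 0.0378 by limma). That call was kept in 9 of 17 fits without 1 mouse and lost without LLC replicate 1 or 3, LLC + rFibcd1 replicate 2, Control replicate 3 or 4, or Control + rFibcd1 replicate 2, 3 or 4 (adjusted p up to 0.0914). It was also lost without the 3 mice (adjusted p = 0.137). The change itself stayed between 0.49 and 0.67 over the fits without 1 mouse and was 0.52 without the 3 mice.

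The keratin genes had their highest values in the mouse with the most *Epcam*. *Krt8* measured 15.6, 5.56, 6.62, 4.50 and 6.10 TPM in Control and 6.53, 4.15 and 59.4 TPM in LLC mice. *Krt18* measured 12.9, 5.58, 4.68, 3.86 and 4.47 TPM in Control and 5.78, 3.45 and 42.1 TPM in LLC mice. *Krt19* measured 31.2, 22.5, 13.96, 9.32 and 15.7 TPM in Control and 26.4, 16.2 and 115.9 TPM in LLC mice. LLC replicate 3 alone lay above the Control range for each keratin, and Control replicate 1 was the highest Control mouse for each. The ratio of LLC to Control means was 3.04 for *Krt8*, whereas the ratio of medians was 1.07. The log2 change of *Krt8* from Control to LLC was 0.73 ± 0.75 (SE, adjusted p = 0.454), and it was -0.36 without LLC replicate 3. *Krt18* went likewise from 0.70 ± 0.67 (SE, adjusted p = 0.427) to -0.29, and *Krt19* was at 1.07 ± 0.64 (SE, adjusted p = 0.193) with all mice, 0.26 without LLC replicate 3 and 0.47 without the 3 mice.

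**Figure D2:**
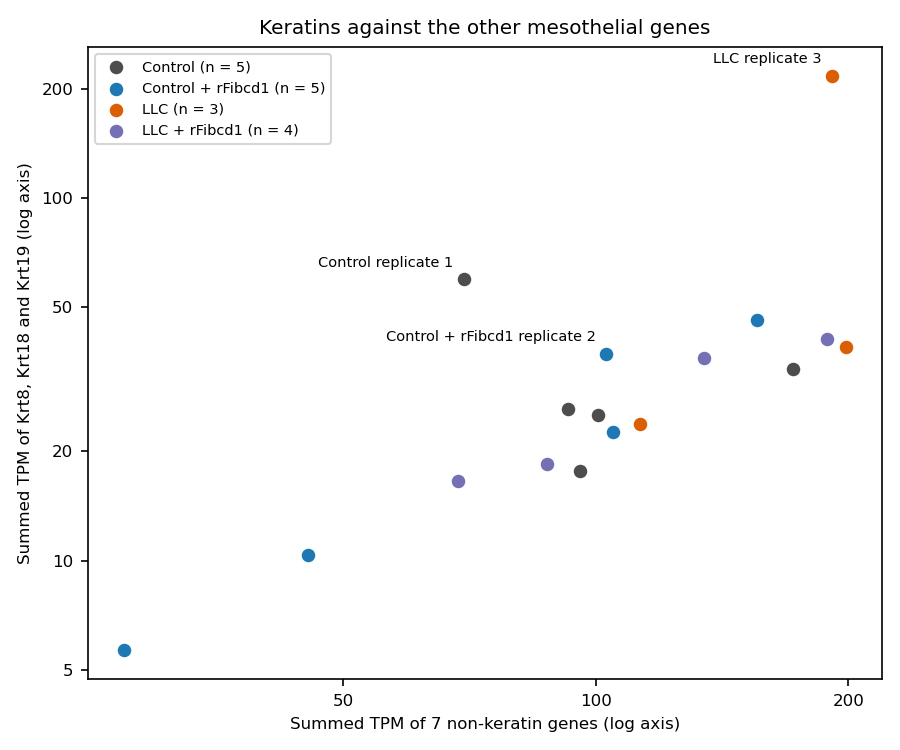
Summed TPM of *Krt8*, *Krt18* and *Krt19* against the summed TPM of the other 7 members, both on log axes, with a point per mouse colored by group. LLC replicate 3 (217.4 against 191.2 TPM) and Control replicate 1 (59.7 against 69.6 TPM) lie above the band formed by the other mice, and Control + rFibcd1 replicate 2 lies at its upper edge.

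The sum of the 3 keratins was 0.185 to 0.296 of the sum of the other 7 members in 14 mice. It was 1.14 of that sum in LLC replicate 3, 0.858 in Control replicate 1 and 0.362 in Control + rFibcd1 replicate 2. *Krt8* and *Krt18*, which form filaments as a pair, kept a ratio between 0.970 and 1.51 in all 17 mice, a 1.56-fold span, while *Krt8* itself spanned 63.6-fold. In Control + rFibcd1 replicate 2, the mouse with the most *Alb*, *Krt8* was at 14.1 TPM and *Krt18* at 11.5 TPM, but *Krt19*, at 11.6 TPM, was within the range of its group.

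Mice of the same group differed widely, and their order changed from member to member. The 7 members other than keratins summed to 69.6 to 171.8 TPM in Control, 27.4 to 155.9 TPM in Control + rFibcd1, 113.0 to 198.7 TPM in LLC and 68.5 to 188.7 TPM in LLC + rFibcd1 mice. The lowest mouse of all, Control + rFibcd1 replicate 4, and the highest, LLC replicate 1, were 7.24-fold apart. The spread was widest in Control + rFibcd1, where the highest mouse was 5.68-fold above the lowest, and narrowest in LLC, at 1.76-fold. This ratio tends to grow with the number of mice, which was 5 and 3 in these groups. The SD was 59.0% of the mean in Control + rFibcd1, 36.4% in Control, 44.8% in LLC + rFibcd1 and 28.3% in LLC mice. In bulk tissue, fewer mesothelial cells in a sample and less RNA per cell cannot be told apart.

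After the group means were subtracted, the members other than keratins correlated with each other across the 17 mice with Pearson's r from 0.707 to 0.991 (median 0.918, 21 pairs). The closest pair was *Lrrn4* with *Upk1b*, whose ratio stayed between 0.626 and 0.871. The 3 keratin pairs had r from 0.849 to 0.988, with *Krt8* and *Krt18* the closest. Between keratins and the other members r was 0.451 to 0.762 (median 0.553, 21 pairs), lowest for *Krt8* with *Wt1*. Without the 3 mice named above, and with group means taken over the remaining 14 mice, the between-set values were 0.702 to 0.966 (median 0.915). The points share their libraries and scaling to a fixed sum, and the correlations are descriptions.

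**Figure D3:**
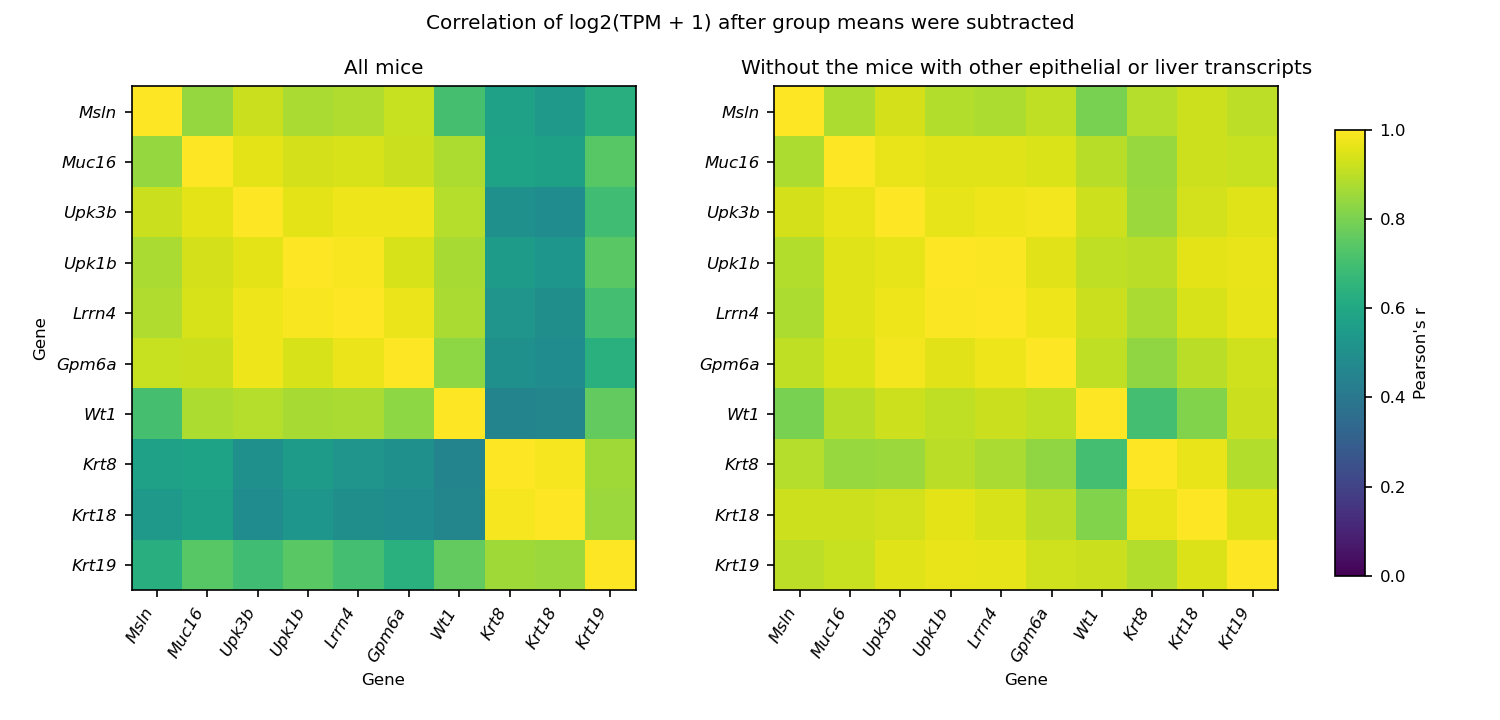
Pearson's r between members, from log2(TPM + 1) with group means subtracted, over all 17 mice (left panel, all mice) and over the 14 mice other than LLC replicate 3, Control replicate 1 and Control + rFibcd1 replicate 2 (right); color runs from 0 to 1. The keratins form a block of their own on the left (median r to the other members 0.553), which is far less distinct on the right (median 0.915).

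In LLC against Control, all 10 members had positive log2 changes, from 0.24 for *Gpm6a* to 1.07 for *Krt19*, with a median of 0.69. The median over all 13305 genes was 0.16 and 73.8% of genes were positive, so a positive sign was common. Of the 10 members, 1 (*Muc16*) passed the adjusted threshold, against 35.8% of all genes tested, and 0 of 10 had groups that did not overlap, against 40.2% of all genes. The members' share of calls was thus below the background, although their median was larger than that of all genes. The background itself varied with the LLC mouse left out. It came to 17% (2254 genes) when replicate 1 was dropped, 37.1% (4915 genes) when replicate 2 was, and 0.182% (24 genes) when replicate 3 was. In the last of these fits 0 members were called and 8 of 10 members stayed positive with a median of 0.50. Without the 3 mice, 2 genes of 13061 were called, again with 0 members, and 8 of 10 members were positive with a median of 0.42. Relative to the median gene, the change of *Muc16* was 0.52.

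With all tumor-bearing mice set against all tumor-free mice, the 10 changes were again positive, from 0.20 for *Gpm6a* to 0.72 for *Krt19*, with a median of 0.54 beside 0.13 over all genes. With 1 mouse left out, *Gpm6a* ranged from 0.053 (Control + rFibcd1 replicate 4) to 0.33 (LLC + rFibcd1 replicate 3). Without LLC replicate 3, *Krt19* was at 0.34, and *Krt8* and *Krt18* were at -0.036 and -0.018. *Muc16* (0.52 ± 0.17, SE, adjusted p = 0.0235 by limma) and *Wt1* passed, which is 2 of 10 members against 44.8% of all genes. The *Muc16* call was lost without LLC replicate 1 or LLC replicate 3 (adjusted p up to 0.0674). Without LLC replicate 3, 31.4% of all genes and 0 of 10 members were called. The tumor-bearing and tumor-free mice overlapped for all 10 members, while 2.26% of all genes had no overlap. *Msln* missed the threshold with 0.64 ± 0.30 (SE, adjusted p = 0.0962), and so did *Upk3b* with 0.67 ± 0.36 (SE, adjusted p = 0.140). This comparison contains the Control and LLC mice of the previous one, so the members' values in these comparisons are not independent.

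In LLC + rFibcd1 against LLC mice, all 10 changes were negative, from -0.33 for *Muc16* to -1.17 for *Krt19*, with a median of -0.60 beside -0.11 over all genes. By limma, 0 of 10 members passed the adjusted threshold and 0 passed an unadjusted p of 0.05 (22.7% of all genes did), while Dunn's test also called 0. Of all genes 0.113% were called, and 14.6% had groups that did not overlap, against 0 of 10 members. The 95% confidence interval for *Upk3b* ran from -1.82 to 0.54 and that for *Muc16* from -0.89 to 0.23, so neither a fall nor a lack of change was established. The LLC mice are shared with the comparison against Control, where the same values enter with the opposite sign. Without LLC replicate 3, the changes of *Krt8*, *Krt18* and *Krt19* were 0.085, 0.0086 and -0.36. The median of the 10 was then -0.32, and it was -0.88 without LLC replicate 2.

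In Control + rFibcd1 against Control mice, all 10 changes were negative too, from -0.049 for *Muc16* to -0.63 for *Krt19*, with a median of -0.45 beside -0.060 over all genes. By limma, 0 of 10 members passed the adjusted or the unadjusted threshold and Dunn's test called 0. Of all genes 0% were called at the adjusted threshold and 4.39% had an unadjusted p under 0.05, and 0.812% had groups that did not overlap, against 0 of 10 members. The ratio of medians was above 1 for *Msln*, *Upk3b*, *Lrrn4* and *Muc16* (1.01 to 1.10) and below 1 for the other 6 members, from 0.740 for *Krt19* to 0.949 for *Gpm6a*. The ratio of means was below 1 for every member but *Muc16*, where it was 1.00. Replicates 3 and 4 of Control + rFibcd1 were the 2 lowest of all 17 mice for the sum of the 7 members other than keratins. The median change of the 10 members was -0.16 without replicate 4 and -0.69 without replicate 1 of that group.

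Over tumor-free and tumor-bearing mice together, rFibcd1 against mock gave a median change of -0.52 for the 10 members beside -0.087 over all genes. Of the members 0 passed the adjusted or the unadjusted threshold, and 0% of all genes passed the adjusted threshold (2699 genes had an unadjusted p under 0.05). *Krt19* had the largest change, -0.90 ± 0.43 (SE, adjusted p = 0.248). It was at -0.50 without LLC replicate 3, where the median of the 10 members was -0.35. The interaction of tumor and rFibcd1 also gave 0 of 10 members by either threshold and 0% of all genes by the adjusted one, with 1142 genes under an unadjusted p of 0.05. Its median over the members was -0.22, with a 95% confidence interval for *Upk3b* from -1.71 to 1.37, so a difference in the response to rFibcd1 between tumor-free and tumor-bearing mice could not be resolved.

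**Figure D4:**
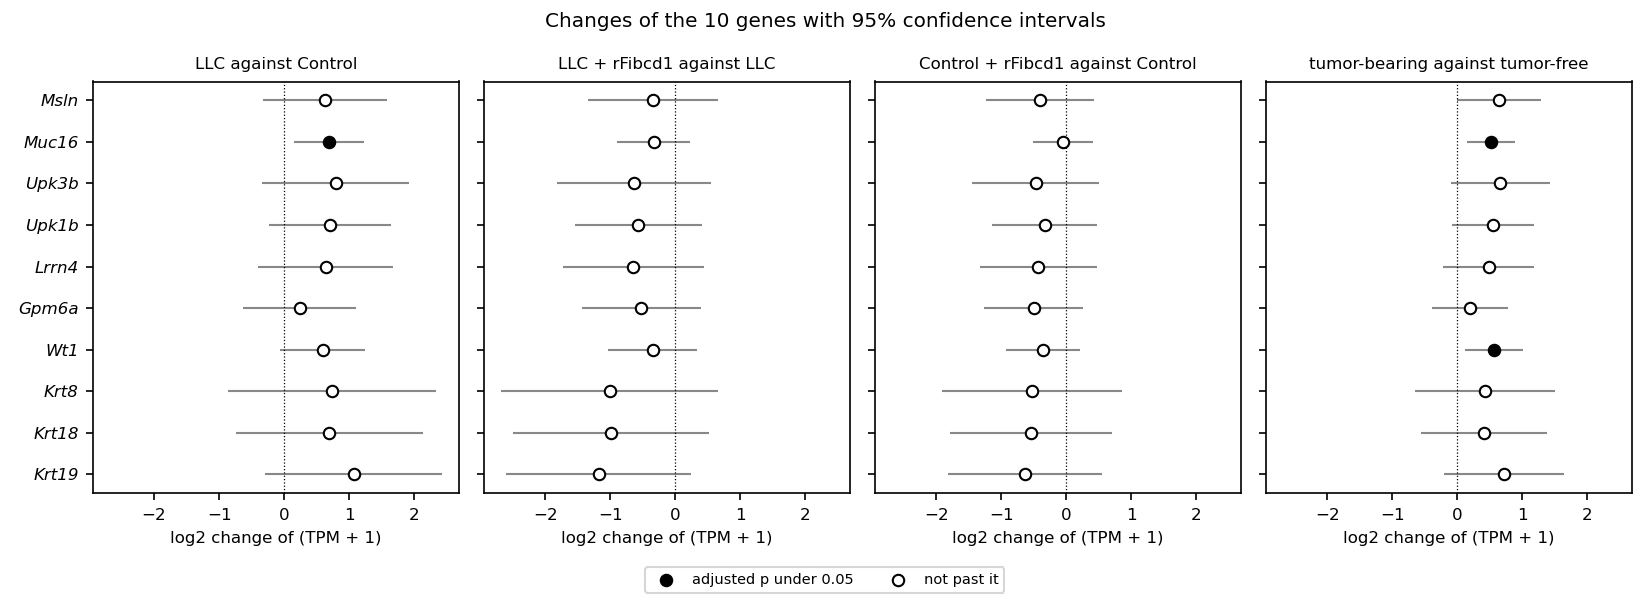
Log2 changes of (TPM + 1) with 95% confidence intervals for the 10 members in 4 comparisons, from the limma fit of all 17 mice; filled points passed an adjusted p of 0.05. Changes lie to the right of 0 in both tumor comparisons and to the left of 0 in both rFibcd1 comparisons, and only *Muc16* (both tumor comparisons) and *Wt1* (tumor-bearing against tumor-free) passed.

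Other genes of the mesothelium mostly changed in the same direction as the members. Of 15 further mesothelial genes, all tested, 2 were called higher in LLC against Control (35.8% of all genes), *Dmkn* and *Ildr2*, and all 15 changes were positive with a median of 0.79. With tumor-bearing set against tumor-free mice 5 of 15 rose, against the 44.8% of all genes called there: *Dmkn*, which encodes a secreted epithelial protein (0.85 ± 0.20, SE, adjusted p = 0.00527), *Pdpn*, the gene of podoplanin (0.41 ± 0.15, SE, adjusted p = 0.0342), *Ildr2*, *Myrf* and, named because so few passed, the claudin gene *Cldn15*. *Dmkn* measured 2.03 ± 0.627 TPM in Control (SD, n = 5) and 4.74 ± 1.41 TPM in LLC mice (SD, n = 3). Without LLC replicate 3, and likewise without LLC replicate 1, 0 of the 15 were called in LLC against Control and 1, *Dmkn*, for tumor-bearing against tumor-free (31.4% and 34.7% of all genes in these fits). In LLC + rFibcd1 against LLC mice, 0 of the 15 were called and all 15 changes were negative. In Control + rFibcd1 against Control mice 13 of 15 changes were negative, while *Prg4* (0.54) and *Slpi* (0.018) were positive. *Krt7*, a keratin in this list, was at 6.15 TPM in 1 LLC mouse, at 1.55 and 2.34 TPM in the other LLC mice and at 0.483 to 2.67 TPM in the other groups.

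Of 16 genes listed for mesothelial activation and transition to mesenchyme, 13 were tested and 5 were called higher in LLC against Control, a share near the 35.8% of all genes called there. They were *Tgfb1*, the gene of a cytokine that drives that transition (0.72 ± 0.21, SE, adjusted p = 0.0193), the cytoskeletal genes *Tagln*, *Vim* and *Acta2*, and *Has1*, a hyaluronan synthase gene (0.84 ± 0.31, SE, adjusted p = 0.0449). These 5 were also called higher when tumor-bearing mice were set against tumor-free mice (44.8% of all genes), and 0 of 13 were called in either rFibcd1 comparison. Without LLC replicate 3, 0 of 13 were called in LLC against Control and 4 of 13, all but *Vim*, for tumor-bearing against tumor-free, where 31.4% of all genes were. Without LLC replicate 1, 3 of 13 were called in LLC against Control. Fibroblasts, vessels and immune cells also express *Tgfb1*, *Vim*, *Acta2* and *Tagln*. *Acta2* was at 223.3 TPM in LLC replicate 3, which also had 51.0 TPM of the smooth muscle gene *Actg2*, while the other LLC mice, both at 65.1 TPM, were within the Control range of 45.8 to 67.3 TPM. The correlation with the mean of the members, group means subtracted, was 0.895 for *Vim*, 0.743 for *Has1*, 0.617 for *Tgfb1*, 0.566 for *Tagln* and 0.522 for *Acta2*, and the list's median was 0.566. Against the 7 members other than keratins it was 0.388 for *Tagln* and 0.330 for *Acta2*, beside a median of 0.375 over all genes.

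Likeness to the members was measured as Pearson's r with the mean of their standardized log2(TPM + 1), group means subtracted, over the 17 mice. The 10 genes most like them, members aside, were *Nkd1*, *Myrf*, *Dpp4*, *Tmem151a*, *Tmem98*, *C2*, *Cdh11*, *Gata6*, *Cyp2s1* and *Ptprf*, with r from 0.960 to 0.971, and without the subtraction r was 0.926 to 0.974. With the mean of the 7 members other than keratins, their r was 0.887 to 0.980, and 3 of them (*Tmem151a*, *Dpp4* and *C2*) were among the 10 most like it, so the order depends on the keratins. The 15 other mesothelial genes had a median r of 0.917, and 9 of them were among the 133 genes of the top 1%, beside a median of 0.388 over all genes tested. *Slpi* and *Prg4* were the least alike in that list, at 0.712 and 0.541.

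Genes of cell types next to the lining differed in their likeness to it, beside the median r of 0.388 over all genes tested. The submesothelial fibroblast genes had a median r of 0.744, the serous cavity macrophage genes 0.669, white adipocyte genes 0.464 and B cell genes 0.432, close to that of all genes, and lymphatic endothelial genes 0.374, below it, whereas skeletal muscle genes had -0.503. *Dpp4* and *Gata6*, which were listed for fibroblasts and cavity macrophages, are also known from mesothelial cells and had the highest r of their lists.

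In LLC against Control, where 35.8% of all genes were called, the calls in these lists changed with the LLC mice included. All 6 B cell genes rose with all mice, and they summed to 211.6 to 267.3 TPM in LLC and 2.39 to 92.8 TPM in Control mice. Of these 6, 0 were called without LLC replicate 1 or without LLC replicate 3 and 2 without LLC replicate 2, while all 6 changes stayed positive (median 2.53 to 2.71). Of the 6 macrophage genes 2, *Timd4* and *Cd5l*, were called, a share near that of all genes, and neither was without any 1 of the LLC mice. *Timd4* was at 7.23 to 9.95 TPM in LLC and 0.914 to 5.68 TPM in Control mice, and *Cd5l* at 7.81 to 13.2 TPM and 0.142 to 5.10 TPM. *Lyz2*, a general myeloid gene that held most of that list's TPM, was not called (adjusted p = 0.0699). Of the 6 fibroblast genes 1, *Pi16*, was called, a smaller share than of all genes. The adipocyte genes, which *Fabp4* and *Adipoq* led in level, all had positive changes with a median of 1.72, larger than that of the members, but 0 of 5 were called. The median was 1.11 without LLC replicate 1, and without LLC replicate 2 it was 2.29 with 3 of 5 called. The adipocyte genes summed to 1029 to 3796 TPM in LLC and 584.3 to 1703 TPM in Control mice. Skeletal muscle genes, by contrast, summed to 39260 to 41380 TPM in LLC and 45830 to 49870 TPM in Control mice, and 4 of 7 fell. None of these lists held a call without LLC replicate 3. The part of these cell types in the members' changes was not tested. The mitochondrially encoded share of TPM was 41.3% to 44.3% in LLC and 45.9% to 48.4% in Control mice. With TPM rescaled without those genes, the median change of the members from Control to LLC was 0.62 beside 0.081 over all genes, and *Muc16* was at 0.78 (adjusted p = 0.0792).

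**Figure D5:**
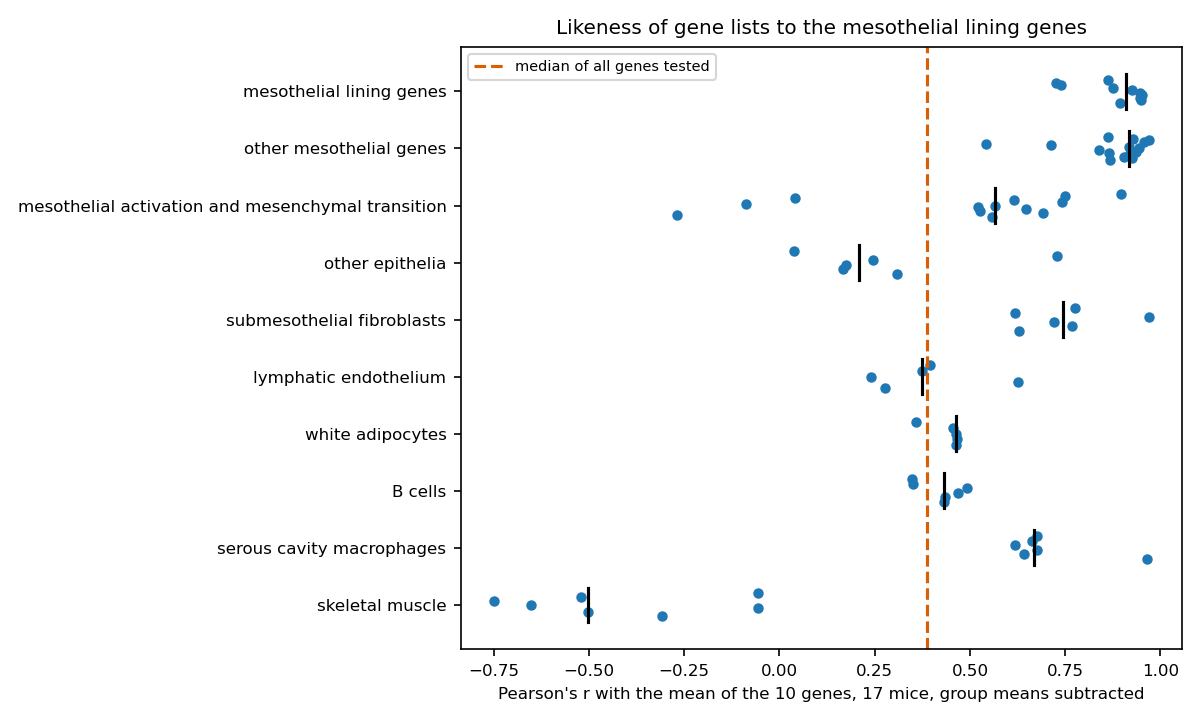
Pearson's r of each listed gene with the mean of the 10 members over 17 mice, group means subtracted; points are genes, black lines list medians and the dashed line the median of all 13305 genes tested (0.388). The other mesothelial genes (median 0.917) lie beside the members, and skeletal muscle genes (median -0.503) lie on the other side of 0. Each member is itself part of the mean, which raises its own r.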

How the data were processed

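The authors trimmed paired reads, aligned them to the mouse genome (mm10 per the labels) and deposited a table of TPM per gene symbol, made in CLC Genomics Workbench; the annotation release is not given in the sources used here. TPM divides reads by transcript length and scales each sample to a fixed sum, so values are relative. All columns matched a sample title and 0 were left out.

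The 13305 genes that reached 1 TPM in 3 or more mice were tested on log2(TPM + 1) with limma 3.58.1 in R 4.3.3. The fit held the 4 groups (13 residual degrees of freedom), with an expression trend, two-sided tests and Benjamini-Hochberg adjustment over all genes. This scale understates changes of low genes such as *Muc16*. The study's rank test (Dunn) was an alternative, since 3 to 5 mice a group are few for its normal approximation. The fit was run on simulated data with independent normal noise for each gene. That setting does not show how the fit behaves with genes that vary together, as the members do. Members and gene lists were chosen with earlier results of these data known. The genes named were all 10 members, the 10 most like them, and, from most other lists, up to 4 called genes by smallest p or else the 2 with the highest TPM. Outside this rule, *Acta1* and *Ckm* were named for skeletal muscle, and no gene was named for B cells or lymphatic endothelium. Where 5 passed, the fifth was also named, and *Epcam*, *Cdh1*, the bladder genes, *Krt7*, *Krt14*, *Lyz2*, *Slpi*, *Prg4* and *Actg2* were named after their values were seen. Depth was estimated with GENCODE vM21 exon lengths: 81.6% to 84.3% of low values fell within 0.02 of a whole read. No batch is given in the labels. Figures used matplotlib.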

Additional observations from a re-analysis of the deposited data

Results flagged for a closer look

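The highest or lowest mouse of a group stood apart from the others in 2 of 30 member and group sets tested with Dixon's criterion on log2(TPM + 1), in groups of 4 or 5 mice. Chance gives about 1 in 20 for a single set, but sets of the same group share their mice and are not independent. *Upk3b* in Control replicate 2 was at 66.2 TPM, above the other 4 Control mice, which lay between 23.9 and 31.8 TPM. *Krt18* in Control replicate 1 was at 12.9 TPM, above the other 4, which lay between 3.86 and 5.58 TPM, and that mouse also had 3.00 TPM of *Epcam*. On the TPM scale itself, added after seeing the data, 4 of 30 sets stood apart: these, *Krt8* in Control replicate 1 (15.6 TPM against 4.50 to 6.62 TPM) and *Wt1* in Control replicate 2 (5.28 TPM against 1.99 to 2.91 TPM). The criterion was applied only to groups of 4 or 5 mice, so the LLC group, with 3, was left out and LLC replicate 3 was not tested.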

How the results depend on the processing

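Most values kept their direction. The members called in LLC against Control fell from 1 to 0 with a pseudocount of 0.1 TPM, a filter of 0.1 TPM, median-ratio scaling, rescaling without mitochondrially encoded genes, Dunn's test and without the 3 mice (an alternative chosen after seeing the data), and ranged from 0 to 2 when 1 mouse was left out (2 without Control replicate 2, when *Wt1* passed). Those for tumor-bearing against tumor-free went from 2 to 1 with either scaling and to 0 without the 3 mice (19.5% of all genes called), and ranged from 0 to 2 when 1 mouse was left out; leaving out LLC replicate 1 or LLC replicate 3 gave 0. The 2 scalings moved the median of all genes in LLC against Control from 0.16 to 0.0055 and 0.081.

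Whether the replicate numbers pair the mice was not settled. Of 22 same-numbered pairs, 4 had r over 0.1 (range -0.459 to 0.485), and pairs with different numbers were not compared. With a replicate block the members called were 0 in LLC against Control and 0 for tumor-bearing against tumor-free, all genes called in LLC against Control went from 4759 to 5, and the *Gpm6a* interaction was 0.078.

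Signs turned for values that had not passed. The *Gpm6a* interaction (-0.015) was 0.0026 with the smaller pseudocount, 0.041 with median-ratio scaling and 0.035 without mitochondrially encoded genes. By difference in mean rank, Control + rFibcd1 against Control was 0.2 for *Msln* and 0 for *Muc16*. Without the 3 mice, LLC against Control was -0.094 for *Krt8* and -0.032 for *Krt18*, and LLC + rFibcd1 against LLC was 0.085 and 0.0086. Without them the interactions were 0.13 for *Upk3b*, 0.089 for *Upk1b*, 0.12 for *Lrrn4*, 0.31 for *Gpm6a*, 0.71 for *Krt8*, 0.65 for *Krt18* and 0.089 for *Krt19*. The cause was not tested.

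With 1 mouse left out, LLC against Control ranged from -0.36 to 1.42 for *Krt8* and -0.29 to 1.35 for *Krt18*, LLC + rFibcd1 against LLC from -1.69 to 0.085 and -1.63 to 0.0086, and tumor-bearing against tumor-free from -0.036 to 0.62 and -0.018 to 0.56, the turned sign in each case without LLC replicate 3. Control + rFibcd1 against Control ranged from -0.21 to 0.093 for *Muc16*. Interactions ranged from -0.32 to 0.26 for *Msln*, -0.53 to 0.15 for *Upk3b*, -0.52 to 0.046 for *Upk1b*, -0.50 to 0.082 for *Lrrn4*, -0.29 to 0.19 for *Gpm6a*, -0.20 to 0.20 for *Wt1*, -1.16 to 0.62 for *Krt8*, -1.09 to 0.55 for *Krt18* and -1.11 to 0.27 for *Krt19*. Depth is estimated, not known, and groups of 3 to 5 mice with this spread limit what can be resolved.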
